A study of Mus musculus with 2 samples.

Results

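The mitosis and spindle genes are 32 mouse genes whose proteins take a cell through mitosis. They were chosen by name and by known role, as a list of gene symbols matched to the gene column of the deposited table. All 32 were found, each in 1 row, among 55468 rows in all. The list holds 4 mitotic cyclin and CDK1 genes, 2 mitotic kinases, 3 genes of the chromosomal passenger complex, 4 of the spindle checkpoint, 2 of the anaphase trigger, 4 of the centromere and kinetochore, 5 mitotic kinesins, 4 of spindle assembly and the spindle midzone, and 4 of chromosome structure.

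The RNA came from KPC2, a mouse pancreatic cancer line, as 1 library of gemcitabine-resistant cells and 1 library of wild type cells. The resistant cells had been exposed to 260 ng/mL gemcitabine over a long period and still grew in it, and the wild type cells were untreated. Both were grown in the same serum-containing medium. The labels give no genotype and do not say whether the resistant cells are 1 clone or a mixed population. With 1 library per group there is no replicate check, and every difference describes these 2 libraries. Because the drug was present in the resistant culture only, its direct action and a stable property of those cells cannot be told apart.

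Entry into mitosis is driven by the kinase CDK1 bound to cyclin A or cyclin B. Polo-like kinase 1 and the aurora kinases then direct the building of a bipolar spindle, kinesin motors push and slide its microtubules, and kinetochores tie each chromosome to them. The spindle checkpoint holds the anaphase-promoting complex (APC/C) in check until every chromosome is attached, after which separase cuts cohesin and the midzone guides cytokinesis. Most of these genes are transcribed in G2 and M phase and are used as markers of dividing cells. Gemcitabine is a deoxycytidine analogue that stops DNA synthesis once it is built into DNA. In human and mouse cells the promoters of many such genes carry a CHR (cell cycle genes homology region) and CCAAT boxes, bound by the DREAM and MMB complexes with FOXM1 and by NF-Y.

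Promoter windows of 300 bases, 250 before and 50 after each gene's start, were taken from RefSeq on GRCm38.p6, and 27 of the 32 genes had one. The start is that of the RefSeq transcript, which for Kif2c lies 3867 bases inside the gene as GENCODE places it, and for the others at most 328 bases from the annotated start. Kif11, Kif23 and Ndc80, the 3 genes with the lowest ratios, are printed beside Ccnb1 and Cdk1, whose levels were nearly the same in both libraries, so that the motifs can be set side by side. The windows are chr19:37376132-37376431 on the plus strand for Kif11, chr9:61946750-61947049 on the minus strand for Kif23, chr17:71526808-71527107 on the minus strand for Ndc80, chr13:100786437-100786736 on the minus strand for Ccnb1 and chr10:69352863-69353162 on the minus strand for Cdk1. Each is written 5′ to 3′ along its gene, and the capitals mark matches to 3 motifs on either strand, a match on the opposite strand appearing as its reverse complement. For the CHR the letters searched were TTTGAA and TTTAAA, and no further form of that element was searched. The box bound by NF-Y was searched by the letters that name it. The E2F site was searched as TTTCCCGC, TTTCGCGC, TTTGCCGC and TTTGGCGC.
Kif11: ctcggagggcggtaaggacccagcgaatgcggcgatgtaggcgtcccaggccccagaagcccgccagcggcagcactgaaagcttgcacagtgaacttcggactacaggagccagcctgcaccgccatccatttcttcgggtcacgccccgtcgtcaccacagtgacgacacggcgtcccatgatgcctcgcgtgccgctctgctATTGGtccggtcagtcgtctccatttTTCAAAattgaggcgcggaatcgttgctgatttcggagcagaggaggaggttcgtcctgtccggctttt
Kif23: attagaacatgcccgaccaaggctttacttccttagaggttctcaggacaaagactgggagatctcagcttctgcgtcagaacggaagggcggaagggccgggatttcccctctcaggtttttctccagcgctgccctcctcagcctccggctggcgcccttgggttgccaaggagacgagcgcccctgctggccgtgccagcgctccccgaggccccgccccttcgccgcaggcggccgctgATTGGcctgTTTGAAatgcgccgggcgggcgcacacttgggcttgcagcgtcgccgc
Ndc80: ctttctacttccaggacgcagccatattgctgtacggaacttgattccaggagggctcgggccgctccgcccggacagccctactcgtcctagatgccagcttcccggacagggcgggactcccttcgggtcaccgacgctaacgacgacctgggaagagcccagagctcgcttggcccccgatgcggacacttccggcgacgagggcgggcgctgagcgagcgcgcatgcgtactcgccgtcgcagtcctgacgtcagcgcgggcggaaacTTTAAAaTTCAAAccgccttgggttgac
Ccnb1: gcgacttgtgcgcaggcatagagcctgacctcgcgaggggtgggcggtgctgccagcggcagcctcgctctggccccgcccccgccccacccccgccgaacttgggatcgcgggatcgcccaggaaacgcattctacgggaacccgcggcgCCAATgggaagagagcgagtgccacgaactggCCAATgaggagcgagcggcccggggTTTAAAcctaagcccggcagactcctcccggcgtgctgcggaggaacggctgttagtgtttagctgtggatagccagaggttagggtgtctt
Cdk1: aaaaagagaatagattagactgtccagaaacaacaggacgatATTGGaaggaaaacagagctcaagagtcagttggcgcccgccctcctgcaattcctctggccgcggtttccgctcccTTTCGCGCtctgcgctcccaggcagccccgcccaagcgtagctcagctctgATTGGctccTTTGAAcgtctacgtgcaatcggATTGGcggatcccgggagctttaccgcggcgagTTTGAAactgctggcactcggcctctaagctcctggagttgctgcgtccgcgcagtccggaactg

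In these windows Kif11 and Kif23 each held 1 CHR and 1 CCAAT box, close to the start of the gene. The CHR of Kif11 began 19 bases before the start and that of Kif23 at base 3 of the transcript. Ndc80 held 2 CHR matches and no CCAAT box. Ccnb1 held 1 CHR and 2 CCAAT boxes, and Cdk1 held 2 CHR matches, 3 CCAAT boxes and 1 E2F site. Over all 27 genes with a window, 24 (88.9%) held a CHR, against 27.8% of 27025 mouse genes with a window of the same length. A CCAAT box was present in 22 (81.5%), against 37.9% of all genes, and both motifs together in 21 (77.8%), against 10.9%. An E2F site was found in 3 (11.1%), Cdk1, Ncapd2 and Ncapg, against 2.32% of all genes. In 20 of the 27 (74.1%), against 8.24% of all genes, a CHR began within 50 bases of the start. Without Kif2c, whose window lies inside the gene and held a CHR and no CCAAT box, a CHR was present in 23 of 26 genes (88.5%) and a CCAAT box in 22 of 26 (84.6%). No match overlapped another in these windows. Bub1 held CCAAT boxes and neither searched form of the CHR, and Mad2l1 and Nusap1 held none of the motifs. This says only that these letters are not in their windows, and a CHR of another form would not be counted. All 5 printed genes, the lowest and the nearly level ones alike, thus carried a CHR, and no motif was tested against the ratio.

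**Figure D1:**
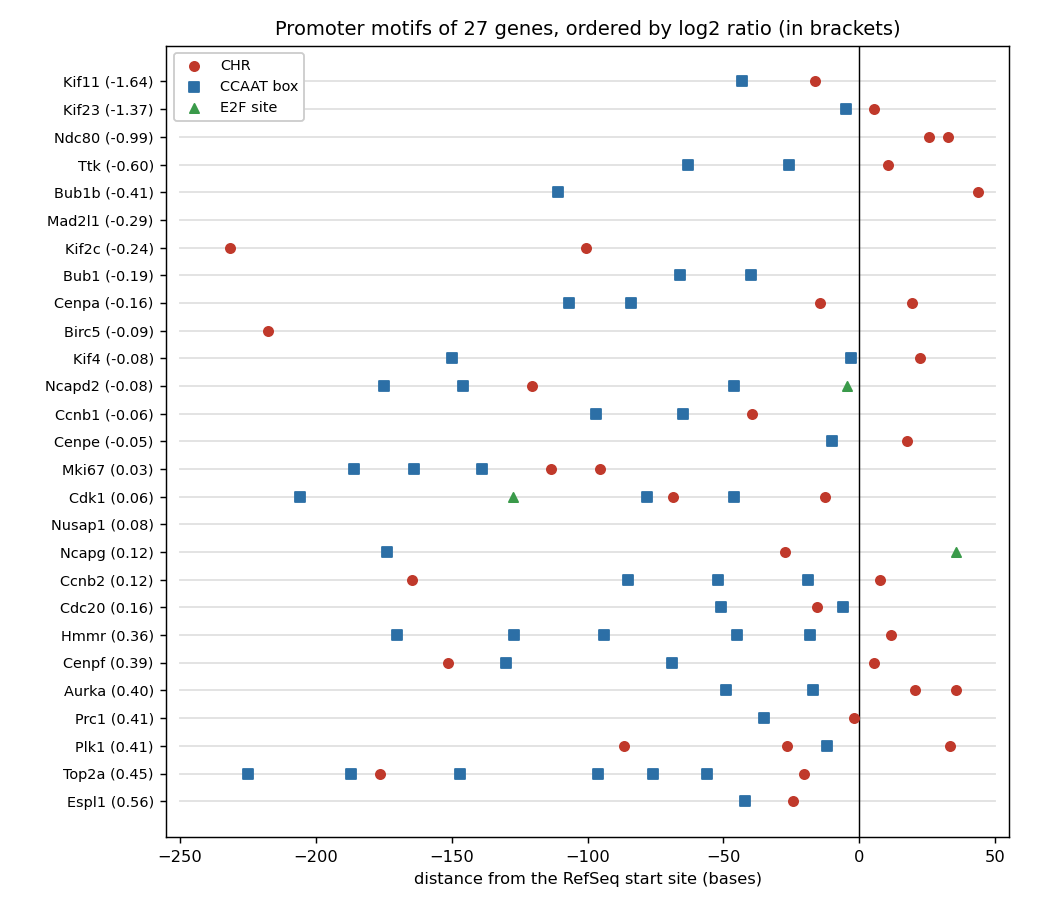
Motif matches in the promoter windows of the 27 genes that have one, by distance in bases from the start of the gene, with each gene on its own row, ordered by its log2 ratio, and a symbol for each motif (the window of Kif2c lies inside the gene). CHR matches gather near the start: 20 of 27 genes have one that begins within 50 bases of it.

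The levels of these genes were read from the deposited table as FPKM, fragment counts scaled to transcript length and to the fragments of the whole library, a unit that the table does not name. As a check of the labels, Krt8 stood at 1722 FPKM in the resistant and 1176 FPKM in the wild type library and Cdh1, the E-cadherin gene, at 164 and 207 FPKM in the same order. Both mark epithelial cells, but another such marker, Epcam, was near 0 (0.10 FPKM in the resistant and 0.21 FPKM in the wild type library). Of the listed markers of fibroblasts (6), endothelium (3) and acinar and islet cells (5), none reached 1 FPKM in either library. The leukocyte markers summed to 7.24 FPKM in the resistant and 1.59 FPKM in the wild type library, with 2 of 6, Cd68 and Lyz2, at 1 FPKM or more in the resistant library and Cd68 alone in the wild type library. Cd3e and Cd79a were listed at 0 in both, Ptprc had 0.23 FPKM in resistant cells against a listed 0 in wild type cells, and the part of these markers in the results was not tested. The median log2 ratio of 12193 measured genes was 0.02, a gene counting as measured where either library reached 1 FPKM. In bulk RNA, fewer cells in mitosis and less RNA per mitotic cell cannot be told apart.

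All 32 genes were well above the level filter, at more than 8 FPKM in both libraries. The measure of difference is log2((resistant FPKM + 1)/(wild type FPKM + 1)), and a gene with a value of at least 1 in size is called at least 2-fold higher or lower. By this measure 2 of the 32 genes, Kif11 and Kif23, were at least 2-fold lower in the resistant library, against 8.37% of measured genes, and 0 were at least 2-fold higher, against 7.90%. Among genes at 5 FPKM or more, the shares were 7.84% lower and 7.76% higher. At a threshold of 1.5-fold, 4 genes were lower (Kif11, Kif23, Ndc80 and Ttk), against 19.7% of measured genes, and 0 were higher, against 18.4%. The share of the 32 genes that was at least 2-fold lower, 6.25%, is thus near the share among all measured genes.

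Most of the set stood close to the same level in both libraries. In 28 of the 32 genes (87.5%) the ratio was within 1.5-fold, against 61.9% of measured genes, and in 18 (56.2%) within 1.25-fold, against 37.2%. The median log2 ratio of the 32 genes was -0.05, with 15 of them above 0, against 6188 of 12193 measured genes. Of these 15, 5 turned below 0 when the resistant library was rescaled to the upper quartile of the wild type library. Over all deposited rows the FPKM values summed to 1197279 in the resistant and 998508 in the wild type library. Rescaling to equal sums was not tried. The median size of the log2 ratio, without its sign, was 0.22, against 0.45 over all measured genes and 0.44 over those at 5 FPKM or more. Across the 32 genes the log2 FPKM values of the libraries had a Pearson r of 0.90 and a Spearman rho of 0.88. Both are given as a description, since the genes share their libraries and are not independent. Top2a, Cdk1 and Birc5 were the 3 highest in the resistant library, and Birc5, Cdk1 and Ccna2 in the wild type library, where Top2a ranked 4.

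**Figure D2:**
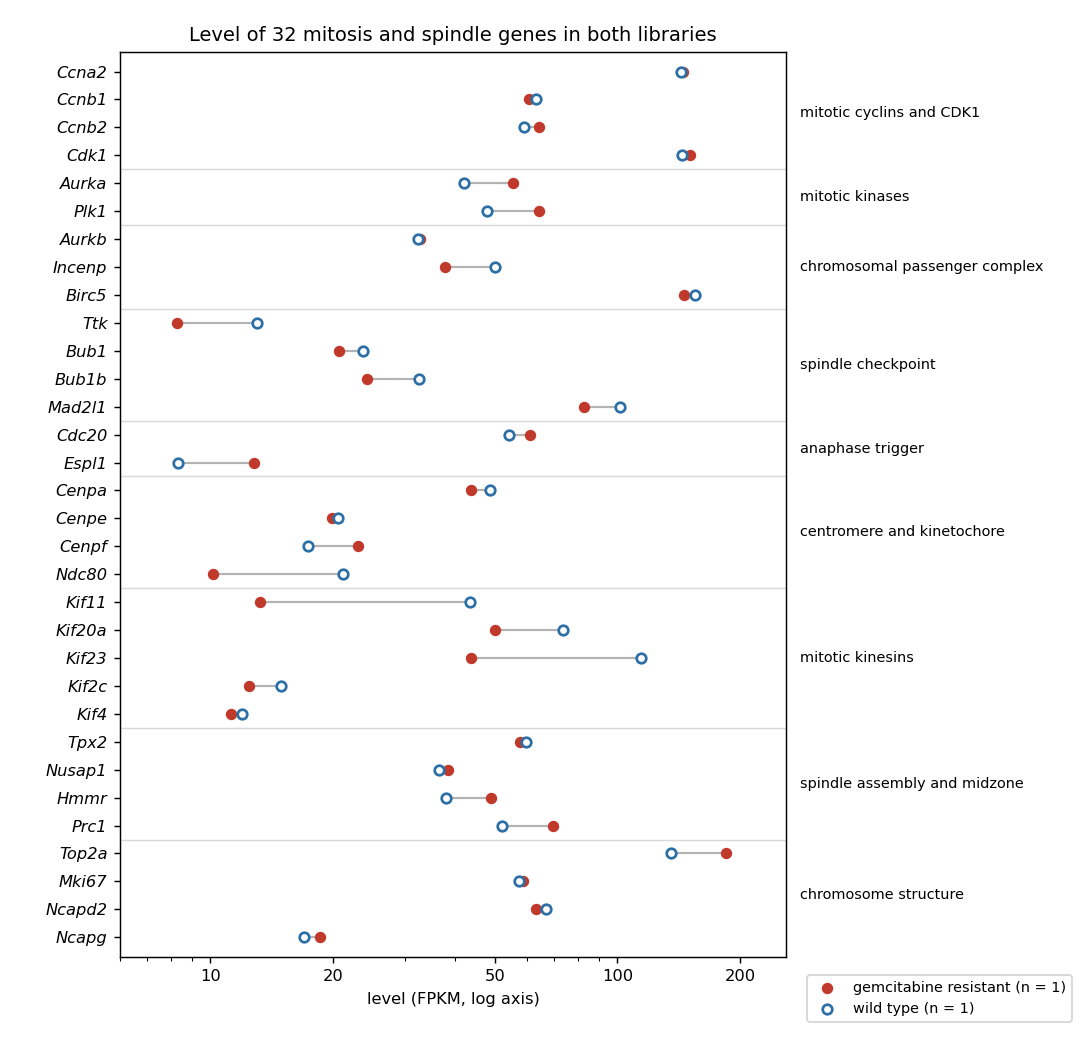
Level of each of the 32 genes in FPKM on a log axis, with a filled point for the resistant and an open point for the wild type library, grouped by role. The points of most genes lie close together, while Kif11 (13.2 against 43.4 FPKM), Kif23 (43.7 against 114.4 FPKM) and Ndc80 (10.2 against 21.2 FPKM) are far apart, with the resistant library lower.

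The mitotic cyclin and CDK1 genes were nearly level. Cdk1, the kinase that triggers mitosis, stood at 150.6 FPKM in the resistant and 144.5 FPKM in the wild type library, a log2 ratio of 0.06. Ccnb1, which encodes cyclin B1, its main partner, stood at 60.6 and 63.0 FPKM in the same order (-0.06), and Ccnb2, for cyclin B2, at 64.2 and 58.8 FPKM (0.12). Ccna2, for cyclin A2, which acts in S and G2 phase, had 144.9 FPKM in the resistant and 143.6 FPKM in the wild type library (0.01). The 4 ratios lay between -0.06 and 0.12, with no gene apart from the others. Another list, of 10 genes for the control of cyclin B and CDK1, had a median of -0.43. In it 9 were below 0, against 6005 of 12193 measured genes. At 1.5-fold 4 of the 10 (40%, against 19.7%) were lower and 0 higher, against 18.4%.

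The genes of the kinases Plk1 and Aurka were both higher in the resistant library, against 6188 of 12193 measured genes. Plk1, for polo-like kinase 1, which matures centrosomes and promotes entry into mitosis, stood at 64.0 FPKM in the resistant and 47.9 FPKM in the wild type library, a log2 ratio of 0.41. Aurka, for aurora kinase A, which acts at the spindle poles, stood at 55.5 FPKM in the resistant and 41.9 FPKM in the wild type library, a ratio of 0.40. Tpx2, whose protein binds and activates aurora A on the spindle, was level, with 57.6 FPKM in the resistant and 59.6 FPKM in the wild type library (-0.05). The 3 genes of the chromosomal passenger complex, which corrects faulty attachments, were not lower together. Aurkb, its kinase aurora B, had 32.8 FPKM in the resistant and 32.3 FPKM in the wild type library (0.02). Birc5, which encodes survivin, had 145.7 and 155.1 FPKM in the same order (-0.09). Incenp, the scaffold of the complex, was the lowest of the 3 at 37.6 FPKM in the resistant and 50.1 FPKM in the wild type library (-0.40).

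All 4 spindle checkpoint genes were lower in the resistant library, against 6005 of 12193 measured genes, with a median log2 ratio of -0.35. Ttk, for the kinase MPS1 that starts checkpoint signalling, was the lowest of them, at 8.26 FPKM in the resistant and 13.0 FPKM in the wild type library (-0.60). Bub1b, for BUBR1, an inhibitor of the APC/C, had 24.2 and 32.5 FPKM in the same order (-0.41), and Mad2l1, for MAD2, which binds CDC20, had 82.9 and 101.8 FPKM (-0.29). Bub1, a kinase that recruits the others to kinetochores, had 20.7 FPKM in the resistant and 23.7 FPKM in the wild type library (-0.19). None of the 4 was 2-fold lower. The 9 other checkpoint genes had a median of -0.37, with 7 below 0, against 6005 of 12193 measured genes. The 2 above 0, named after their values were seen, were Zwilch (0.91) and Bub3 (0.32). Both genes of the anaphase trigger were higher in the resistant library, against 6188 of 12193 measured genes. Cdc20, the activator of the APC/C that the checkpoint holds back, had 60.9 FPKM in the resistant and 54.2 FPKM in the wild type library (0.16). Espl1, which encodes separase, the protease that cuts cohesin, had 12.8 FPKM in the resistant and 8.34 FPKM in the wild type library, and its log2 ratio of 0.56 was the highest of the 32.

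Among the centromere and kinetochore genes, Ndc80 stood apart. It encodes the microtubule-binding subunit of the kinetochore complex of the same name and lies on the minus strand at chr17:71496100-71526857 (GRCm38). Ndc80 stood at 10.2 FPKM in the resistant and 21.2 FPKM in the wild type library. The log2 ratio was -0.99, just short of the 2-fold threshold, which it passed without a pseudocount and after either rescaling, and the plain ratio of the FPKM values was 0.479. The other 3 were close to level or higher. Cenpf, for a large protein of the outer kinetochore, had 23.0 FPKM in the resistant and 17.3 FPKM in the wild type library (0.39). Cenpa, for the histone variant that marks centromeres, had 43.7 and 48.8 FPKM in the same order (-0.16), and Cenpe, for a kinetochore kinesin, had 19.9 and 20.6 FPKM (-0.05).

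The 5 mitotic kinesin genes were all lower in the resistant library, against 6005 of 12193 measured genes. The amounts differed widely, with a median log2 ratio of -0.55. The 8 other mitotic kinesin genes measured had a median of -0.01, with 4 above 0 and 4 below. Kif11 encodes Eg5, the motor that pushes spindle poles apart, and lies on the plus strand at chr19:37376403-37421859. It stood at 13.2 FPKM in the resistant and 43.4 FPKM in the wild type library, a log2 ratio of -1.64 and 30.5% of the wild type level. This put Kif11 at percentile 1.91 of measured genes, counted from the lowest ratio. Kif23 encodes MKLP1, the kinesin of the centralspindlin complex that bundles midzone microtubules for cytokinesis, and lies on the minus strand at chr9:61915905-61946774. It stood at 43.7 FPKM in the resistant and 114.4 FPKM in the wild type library, a log2 ratio of -1.37 and 38.2% of the wild type level. By level among the 32 genes, Kif23 ranked 18 in the resistant and 5 in the wild type library, and Kif11 ranked 27 in the resistant and 18 in the wild type library.

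The other kinesin genes differed less. Kif20a, for a midzone motor needed in cytokinesis, had 49.9 FPKM in the resistant and 73.5 FPKM in the wild type library (-0.55). Kif2c, for a motor that takes microtubules apart at the centromere, had 12.4 and 14.9 FPKM in the same order (-0.24), and Kif4, for a chromosome-bound motor, had 11.3 and 12.0 FPKM (-0.08). Kif23 and Kif20a thus differed in size although both proteins act at the midzone. Without Kif11 and Kif23 the median of the other 30 genes was -0.02.

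The remaining spindle genes were level or higher in the resistant library. Prc1, which encodes the bundler of midzone microtubules, had 69.5 FPKM in the resistant and 52.0 FPKM in the wild type library (0.41). Hmmr, for a protein of the spindle poles, had 49.0 and 38.0 FPKM in the same order (0.36), and Nusap1, which binds spindle microtubules near chromosomes, had 38.4 and 36.4 FPKM (0.08). Among the chromosome genes, Top2a, for the topoisomerase that untangles sister DNA, had 185.2 FPKM in the resistant and 135.1 FPKM in the wild type library (0.45). Mki67, the widely used proliferation marker that coats mitotic chromosomes, was level at 58.6 and 57.3 FPKM in the same order (0.03). The condensin I genes Ncapd2 and Ncapg, whose proteins compact chromosomes, had 63.1 and 18.6 FPKM in the resistant library, against 66.8 and 17.0 FPKM in the wild type library (-0.08 and 0.12).

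**Figure D3:**
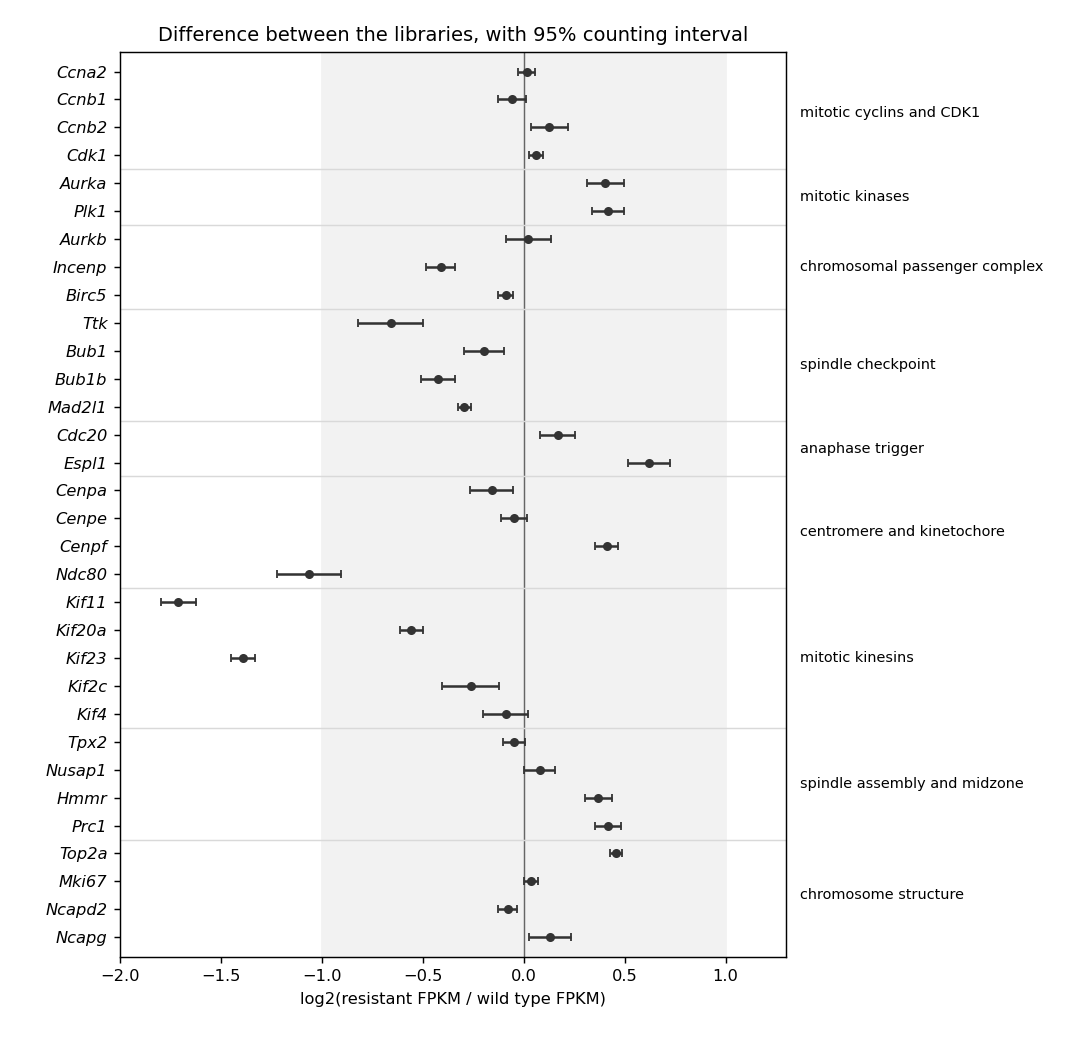
Log2 of the plain ratio of resistant to wild type FPKM, with no pseudocount, for each of the 32 genes by role, with bars for the 95% interval from counting fragments alone and a shaded band within 2-fold. On this scale Kif11 (-1.71), Kif23 (-1.39) and Ndc80 (-1.06) lie below the band, the bar of Ndc80 crosses its edge, and the highest is Espl1 (0.62).

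**Figure D4:**
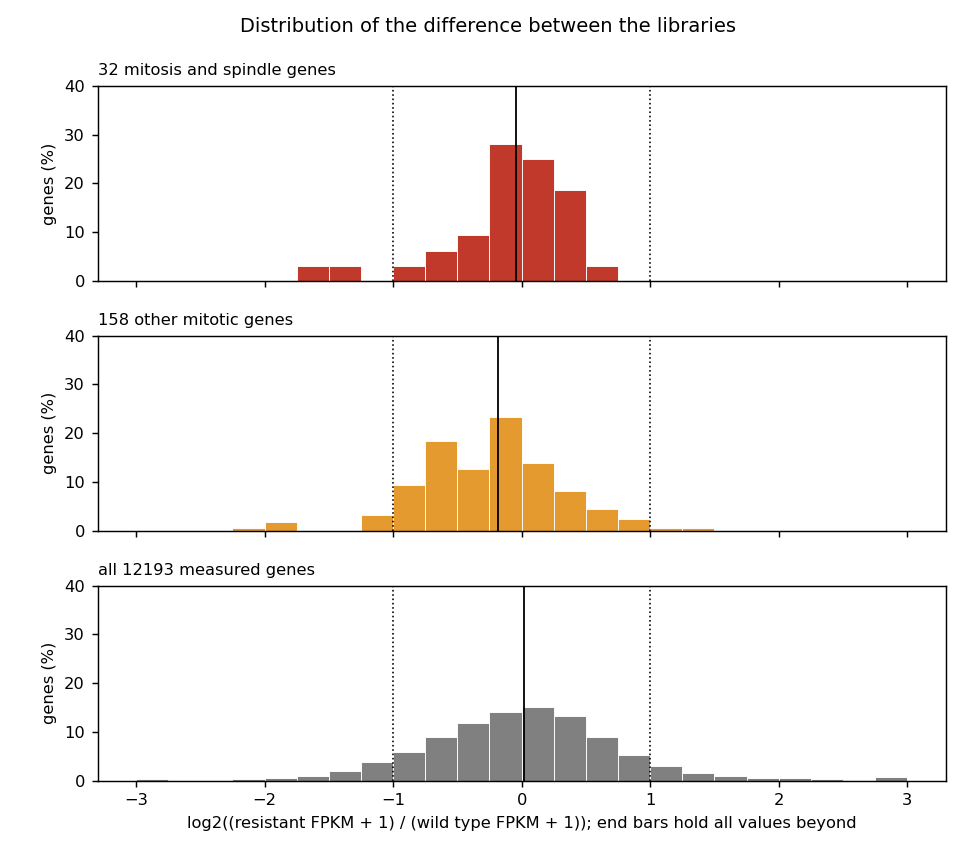
Percent of genes in each bin of the log2(FPKM + 1) ratio, for the 32 genes (top), 158 other mitotic genes (middle) and all 12193 measured genes (bottom), with a solid line at each median and dotted lines at 2-fold. The 32 genes crowd around 0, with 28 within 1.5-fold and Kif11 and Kif23 in the lower tail.

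The fragments behind each value set its counting error. From the size of whole-fragment steps in low FPKM values, each of the 32 genes rested on an estimated 472 to 21345 fragments in the resistant and 834 to 17755 fragments in the wild type library, taking its longest coding transcript. For Kif11 these were about 1405 and 4766 fragments, and the exact 95% interval of its plain ratio of 0.305 was 0.287 to 0.324. For Kif23 the plain ratio was 0.382, with an interval of 0.366 to 0.397, and for Ndc80 it was 0.479, with an interval of 0.428 to 0.534, which includes a 2-fold difference. These exact (Clopper-Pearson) intervals cover counting error only and would be wider with shorter transcripts. Of the 32 intervals, 25 exclude equal levels and 29 lie within 2-fold in either direction, but the spread between cultures is not known. The matching shares over all measured genes are not given, so these counts do not set the 32 genes apart. Ccna2, Ccnb1, Aurkb, Cenpe, Kif4, Tpx2 and Mki67 are the 7 whose interval includes equal levels.

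In the authors' deposited table none of the 32 genes was called different, against 0.404% of the rows that the authors tested, 56 of 13850. The lowest p-value among the 32 in the authors' deposited table was that of Kif11, 0.00855, with a q-value of 0.525. Kif23 followed in the authors' deposited table with a p-value of 0.0537 and a q-value of 0.998. That test had 1 library on each side.

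Some values could carry fragments of other genes. Ccna2, Cdc20, Kif20a, Kif4, Nusap1, Prc1 and Ncapg each overlap another coding gene, and the strand setting is not given, so their values are uncertain to that extent. Close copies, at 90% identity or more over at least 500 bases, exist for several members. Ndc80 has 3, of which 2700099C18Rik stood at 3.29 FPKM in the resistant and 3.62 FPKM in the wild type library and Gm1976 at 1.0 and 0.607 FPKM in the same order. Ndc80 is therefore uncertain by fragments that may be shared with them. The copy of Kif11, Gm15697, was listed at 0 in the resistant library and stood at 0.0456 FPKM in the wild type library. The 4 copies of Ccnb1 were led by Ccnb1-ps, at 1.07 FPKM in the resistant and 1.52 FPKM in the wild type library. No such copy was found for Kif23.

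The neighbours of Kif11, Kif23 and Ndc80 were read to show whether the whole stretch of chromosome was low. On chromosome 19, Ide, next to Kif11, stood at 48.2 FPKM in the resistant and 47.6 FPKM in the wild type library, while Hhex on the other side had 2.94 and 20.7 FPKM in the same order, a log2 ratio of -2.46. The next gene beyond Hhex, Exoc6 (-0.51), and the third on the side of Ide, Btaf1 (-0.75), were lower too, while March5 (-0.09) and Myof (-0.01) were near level. On chromosome 9, Paqr5, next to Kif23 on one side, had 8.65 FPKM in the resistant and 19.0 FPKM in the wild type library (-1.05), and Tle3 had 17.1 and 41.5 FPKM in the same order (-1.23), while Rplp1, between Tle3 and Kif23, was at 2041 FPKM in the resistant and 1824 FPKM in the wild type library (0.16). Farther out, Uaca (-0.09), on the side of Tle3, and Glce (0.27) and Anp32a (-0.31), on the side of Paqr5, differed less. For Ndc80 on chromosome 17, the 3 measured coding genes on each side had ratios between -0.21 (Smchd1) and 1.51 (Ypel5). Genes with lower ratios and genes that differed less thus lay on both sides of Kif11 and of Kif23.

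Partners in the same complex did not all have similar ratios. In the NDC80 complex, Ndc80 (-0.99) and Spc25 (-0.59) were lower, Nuf2 was level at 22.6 FPKM in the resistant and 22.9 FPKM in the wild type library (-0.02), and Spc24 was higher, at 39.1 and 25.4 FPKM in the same order (0.60). The FPKM of Ndc80 was 0.449 of that of Nuf2 in the resistant library, against 0.927 in the wild type library. The partner of Kif23 in centralspindlin, Racgap1, had 84.2 FPKM in the resistant and 94.0 FPKM in the wild type library (-0.16), and Kif23 had 0.519 of its level in the resistant library, against 1.22 in the wild type library. Kif15, the kinesin that can stand in for Eg5 in human cells, was lower along with Kif11, with 3.76 FPKM in the resistant and 16.6 FPKM in the wild type library (-1.88). In contrast, CDK1, its cyclins and the Cks genes spanned 0.18 log2 units in all, between Ccnb1 (-0.06) and Ccnb2 (0.12). Espl1 and its inhibitor securin, Pttg1, were both higher, with Pttg1 at 21.4 FPKM in the resistant and 7.21 FPKM in the wild type library (1.45). The complexes were assembled from known partners after the values had been seen.

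**Figure D5:**
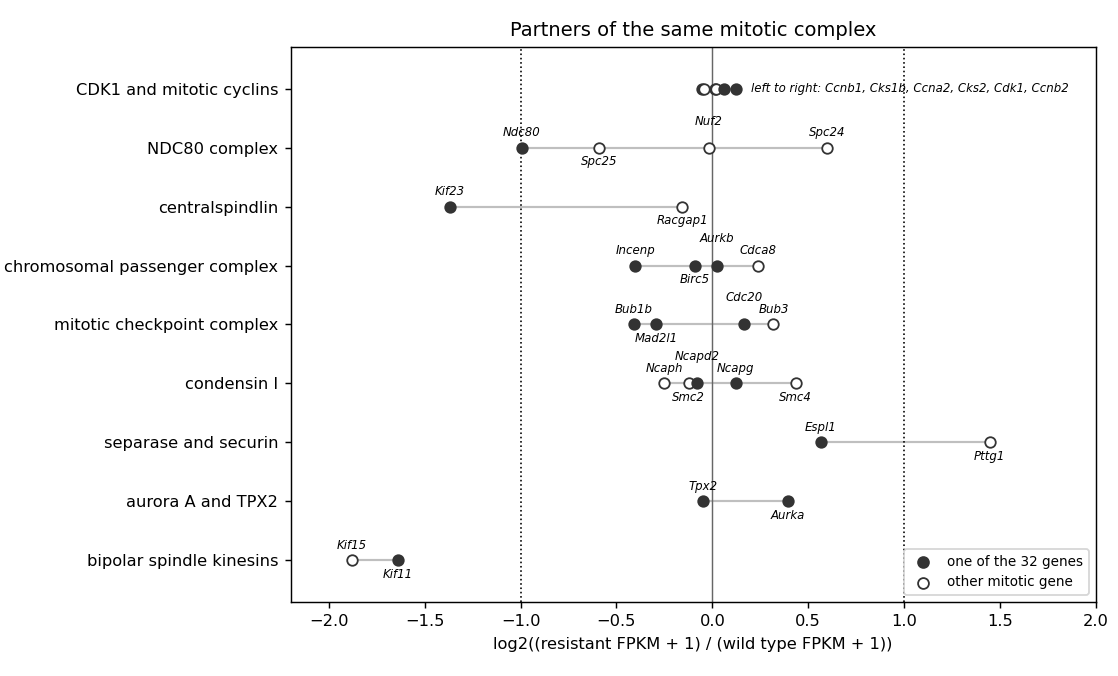
Log2 ratio of the partners in 9 mitotic complexes or pairs, with filled points for the 32 genes and open points for other mitotic genes, and dotted lines at 2-fold. The NDC80 complex spans from Ndc80 (-0.99) to Spc24 (0.60), while CDK1, its cyclins and Cks genes lie between -0.06 and 0.12.

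The other mitotic genes, 160 in 13 lists of which 158 were measured, had a median log2 ratio of -0.18. Among these 9 (5.70%, against 8.37% of measured genes) were at least 2-fold lower and 2 at least 2-fold higher, against 7.90%. At 1.5-fold 43 (27.2%, against 19.7%) were lower and 8 (5.06%, against 18.4%) higher. The 30 other kinetochore genes had a median of -0.54 and 25 below 0, against 6005 of 12193 measured genes. Of the 30, 13 (43.3%, against 19.7% of measured genes) were lower at 1.5-fold and 2 (6.67%, against 18.4%) higher. The lowest were Cenpk, of the inner kinetochore, at 8.39 FPKM in the resistant and 18.8 FPKM in the wild type library (-1.08), and Cenps, at 3.58 and 8.37 FPKM in the same order (-1.03). The 10 genes of centrosome duplication had a median of -0.70, with 7 (70%, against 19.7%) lower and 1 (10%, against 18.4%) higher at 1.5-fold. None of these was lower by 2-fold on the log2(FPKM + 1) scale, but Cep135 and Cep152, named after their values were seen, had plain ratios of 0.253 (interval 0.190 to 0.338) and 0.276 (0.191 to 0.389), at low levels that the pseudocount draws together. Nsl1, one of the other kinetochore genes, was higher, with a plain ratio of 2.27 (interval 1.93 to 2.66) and a log2 ratio of 0.88. It too was named after its value was seen. The 4 centromere and kinetochore genes among the 32 lay between -0.99 (Ndc80) and 0.39 (Cenpf).

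Single genes of the other lists were far lower. Ccnf, for cyclin F, which marks proteins for destruction, had 5.62 FPKM in the resistant and 22.0 FPKM in the wild type library (-1.80). Esco2, the enzyme that locks cohesin in S phase, had 6.57 and 29.8 FPKM in the same order (-2.03), and Trip13, an ATPase that dismantles checkpoint complexes, had 11.8 and 26.7 FPKM (-1.12). Kifc1, a minus-end kinesin that clusters spindle poles, had 7.99 FPKM in the resistant and 19.7 FPKM in the wild type library (-1.20). Cit, for citron kinase, which acts in cytokinesis, had 2.13 FPKM in the resistant and 10.2 FPKM in the wild type library (-1.83). Ccng2, for cyclin G2, which rises in cells that leave the cycle, was higher at 25.8 FPKM in the resistant and 10.5 FPKM in the wild type library (1.22).

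Of the 12 genes for mitotic transcription factors, 11 were below 0, against 6005 of 12193 measured genes. Their median was -0.15, and 4 (33.3%, against 19.7% of measured genes) were lower at 1.5-fold. Those 4, named after their values were seen, were Nfyc (-0.78), for a subunit of NF-Y, and Rbl2 (-0.76), Rbl1 (-0.62) and E2f4 (-0.59), whose proteins act in DREAM complexes. Foxm1, the factor of G2 and M phase genes, had 45.3 FPKM in the resistant and 52.7 FPKM in the wild type library (-0.21), and Mybl2, the MMB subunit B-Myb, had 22.1 and 22.6 FPKM in the same order (-0.03). Ube2c, the APC/C's ubiquitin-conjugating enzyme, had 152.1 FPKM in the resistant and 161.2 FPKM in the wild type library (-0.08). Cdkn1a, for the CDK inhibitor p21, had 7.85 and 6.04 FPKM in the same order (0.33). The 6 other condensin genes and 24 other spindle assembly genes had medians of -0.04 and -0.11. None of them was past 2-fold on the log2(FPKM + 1) scale. Psrc1, a spindle assembly gene named after its value was seen, had a plain ratio of 2.20 (interval 1.73 to 2.84).

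For comparison, the 14 genes of G1 and S cyclins, their CDKs and E2F had a median of -0.69. Of these, 4 (28.6%, against 8.37% of measured genes) were at least 2-fold lower and 7 (50%, against 19.7%) lower at 1.5-fold. None was higher at 2-fold, against 7.90% of measured genes, or at 1.5-fold, against 18.4%. Ccne2, for cyclin E2, stood at 1.5 FPKM in the resistant and 17.4 FPKM in the wild type library (-2.88), and E2f2 at 1.3 and 5.23 FPKM in the same order (-1.47). The 33 replication fork and origin genes had a median of -0.21, with 4 (12.1%, against 8.37% of measured genes) at least 2-fold lower. The lowest of them were Fen1 (-1.94) and Pola2 (-1.91). At 1.5-fold 11 of the 33 (33.3%, against 19.7%) were lower and 1 (3.03%, against 18.4%) higher. The 32 mitosis and spindle genes, at a median of -0.05, were nearer to 0 than these lists, with no test of the difference.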

How the data were processed

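RNA from gemcitabine-resistant and wild type KPC2 cells was sequenced, 1 library each. HISAT2, StringTie and the build GRCm38 are named, with no version or role, per the submitters' processing notes. The deposited table names no unit. The authors' values were taken to be FPKM, because low values of single-transcript genes, times length less 160 bases, fell within 0.1 of whole fragments in 94.4% (resistant) and 94.0% (wild type) of cases. One fragment was then worth 0.0439 FPKM in the resistant and 0.0424 FPKM in the wild type library per 1 kb. Columns deposited beside them hold the authors' log2 fold change, p-value and q-value, which are quoted only as theirs.

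The members and lists were chosen with earlier results of these data known, and the complexes after the values were seen. Rows of 1 symbol were summed, and 13 rows marked as failed or too deep were left out, none of them a member. The pseudocount was 1 FPKM, which understates differences of low genes. All 32 genes were named. From each other list, up to 2 higher and 2 lower genes past 2-fold were named, those with the most extreme ratios, as well as Foxm1, Mybl2, Cdkn1a, Pttg1 and Ube2c. Genes named as complex partners, chromosome neighbours, close copies or cell type markers fall outside that rule. No test was run, because each group has 1 library. Intervals are exact binomial ones at 95%. Transcripts were those of GENCODE M21, and copies were sought with BLAST 2.17.0+. Promoters came from RefSeq, GRCm38.p6, and of genes with several windows the first was taken. The ratio step was tested on simulated data, and the interval step was not. The scripts ran under Python 3.11.15 with scipy 1.17.1, numpy 2.4.6, matplotlib 3.10.9 and pandas 2.3.3. Alternatives were a level filter of 5 FPKM or none, a pseudocount of 0.1 or 5, rescaling to a median of 0 or to the upper quartile, the highest row per symbol and a threshold of 1.5-fold. Restriction to protein-coding genes and a ratio without pseudocount were chosen after seeing the data.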

Additional observations from a re-analysis of the deposited data

How the results depend on the processing

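The median of the 32 genes stayed close to 0 except after rescaling to the upper quartile, which multiplied the resistant library by 0.940 and gave -0.13. The same rescaling gave a median of -0.27 for the other mitotic genes. It turned the small positive ratios of Aurkb, Ccna2, Cdk1, Mki67 and Nusap1 to below 0, and rescaling to a median of 0 did so for Ccna2. Kif11 and Kif23 were at least 2-fold lower under every setting tried. Ndc80 joined them with a pseudocount of 0.1, with none, and after either rescaling. At 1.5-fold, 4 of the 32 genes were lower. Of the other mitotic genes, 43 were lower and 8 higher at 1.5-fold, 4 lower and 1 higher with a pseudocount of 5, and 4 higher with one of 0.1. Of all measured genes, 2407 were lower and 2241 higher at 1.5-fold, 297 lower and 428 higher with a pseudocount of 5, and 1553 lower with one of 0.1. The pseudocount of 5 draws low genes together by construction, and the cause of the other shifts was not tested. No paired analysis was possible because each group has 1 library, and no library could be left out. Over the 32 genes the median counting interval reached 0.07 log2 units to each side. At this depth the interval of Ndc80 includes 2-fold and 7 intervals include equal levels, and the spread between cultures is not known.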
